A study of Mus musculus with 2 samples.

Results

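The early Gata2-rich erythroid progenitors described here were 528 cells of a mouse bone marrow library sorted on a Car1 reporter. They were chosen by their own counts of unique molecular identifiers (UMIs, one per captured transcript). A member had mitochondrial transcripts under 10% of its UMIs, the 4 adult globin transcripts (Hba-a1, Hba-a2, Hbb-bs and Hbb-bt) under 1%, and at least 1 Gata2 UMI per 10000 UMIs. It also had no UMI of Cpa3, Ms4a2 or Gzmb, which mark mast cells, and fewer than 5 UMIs of Pf4, a platelet chemokine gene. The members were 22.0% of the 2400 barcodes that passed the mitochondrial limit in that library (exact binomial 95% interval 20.4 to 23.7%), of 2522 barcodes in the library and 8980 in the series. Another 22 barcodes met every other part of the rule but had 10% or more mitochondrial UMIs.

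The Car1-GFP library held CD45+ cells that expressed GFP in naive Car1-GFP reporter mice on the C57BL/6 background. The other library of the series, called the marrow library, held CD45+ CD3- Ly6G- cells of naive C57BL/6 mice. Each was 1 pool of bone marrow from 3 mice with 10000 cells loaded, so each group is 1 sample and no test between cells was made. The 95% intervals below hold counting error alone and say nothing of the spread between mice or sorts.

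Red cells arise from multipotent progenitors through stages that divide rapidly and then fill with hemoglobin. GATA2 is the GATA-family transcription factor of stem cells and early progenitors, and GATA1 takes over its chromatin sites as erythroid differentiation proceeds, a step known as the GATA switch. KIT, the receptor for stem cell factor, sustains early erythroid progenitors, erythropoietin acts through EPOR on later ones, and the carbonic anhydrases encoded by Car1 and Car2 are abundant in erythroid cells.

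The members held 5253068 UMIs, with 4705 to 37707 UMIs per cell and a median of 7855. Their main comparison was with 1117 Gata2-low cells of the same library, which met every part of the rule except the Gata2 limit. Those held 23657244 UMIs with a median of 20618 per cell. A member had a median of 2335 genes with a UMI and a Gata2-low cell 3886. Thus 69.7% of the members, against 19.4% of the Gata2-low cells, had under 10000 UMIs. The rule and this gap in depth are linked: below 10000 UMIs a single Gata2 UMI made a cell a member, whereas a cell of 20000 UMIs needed 2. Of the members, 180 had 1 Gata2 UMI, 157 had 2 and 191 had 3 or more. Of the Gata2-low cells, 684 had none.

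Just inside the Gata2 limit were cells with 1.0003, 1.002 and 1.003 UMIs per 10000, and just outside were cells with 0.998, 0.996 and 0.985. The members' globin share ran over 0.211 to 0.977% with a median of 0.556%, against a median of 0.542% in Gata2-low cells. The members nearest the globin limit stood at 0.977, 0.917 and 0.871%, and the nearest cells that met the rest of the rule and lay outside it at 1.04, 1.12 and 1.56%. Pf4 was not detected in 402 of the 528 members. The libraries shared 14 barcodes, 2 of them members. A doublet caller marked 8 of the 2400 barcodes, 1 of them a member, a share of 0.333% at which the caller is taken not to have worked. No barcode was removed as a doublet.

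**Figure D1:**
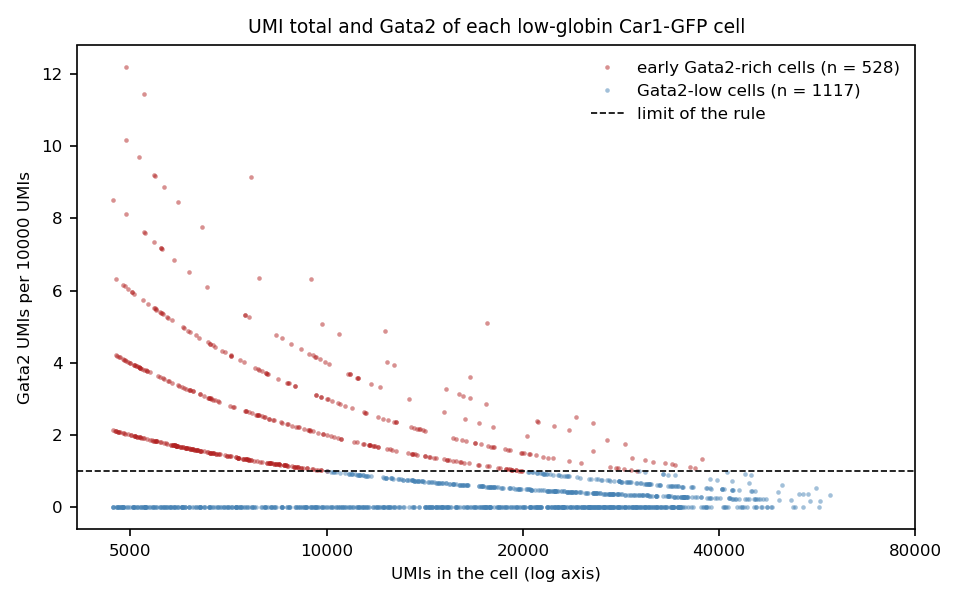
Gata2 UMIs per 10000 UMIs (y axis) against the UMI total (x axis, log scale) of each of the 528 early Gata2-rich cells and 1117 Gata2-low cells. The bands are cells with 0, 1, 2 and more Gata2 UMIs; the members crowd at low UMI totals, where 1 UMI passes the limit of 1 per 10000 (dashed line).

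The markers of the label were detected, with Kit at a level inside the interval of the marrow barcodes given below. Gata2 (ENSMUSG00000015053, mm10 chromosome 6, 88193891 to 88207032, plus strand) stood at 227 counts scaled to 1000000 UMIs (CPM) in the members and 24.0 CPM in Gata2-low cells, a difference the rule itself set. Kit (chromosome 5, 75574916 to 75656722, plus strand) stood at 54.8 CPM in the members (48.7 to 61.5) and 42.8 CPM in Gata2-low cells (40.2 to 45.5). Car1 (chromosome 3, 14766216 to 14808368, minus strand), the gene behind the sort, stood at 740 CPM in the members and 607 CPM in Gata2-low cells. A background of free RNA was counted in the other library alone. There, 21 marrow barcodes with at least 2 UMIs of the B cell receptor component Cd79a had a median of 1580 UMIs. They had no Car1 UMI (95% interval 0 to 97.4 CPM) and 1 UMI each of Kit and Gata2 (26.4 CPM, interval 0.669 to 147). Free RNA of the Car1-GFP library was not measured, so these values set no background for the members. Ptprc, which encodes the CD45 antigen of the sort, stood at 22.5 CPM in the members and 12.5 CPM in Gata2-low cells.

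The erythroid factor genes Gata1, Zfpm1 and Klf1 were present at close levels on both sides of the Gata2 limit. The wider list of such factors is given below. Gata1 stood at 173 CPM in the members and 174 CPM in Gata2-low cells, a log2 ratio of -0.01 (95% interval -0.12 to 0.09). Zfpm1, which encodes the GATA1 cofactor FOG1, stood at 37.5 CPM in the members and 38.0 CPM in Gata2-low cells. Klf1, an activator of globin and other red cell genes, stood at 296 CPM in the members and 332 CPM in Gata2-low cells (log2 ratio -0.17, interval -0.25 to -0.09). All 3 factors were within 1.5-fold of the Gata2-low cells, while Gata2 itself differed by the choice of members.

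Many transcripts of early progenitors stood higher in the members than in Gata2-low cells. Some transcripts of heme synthesis and the red cell membrane stood lower, while most genes were close to equal. Of 9531 genes with at least 50 UMIs in both sets together, 1022 (10.7%) stood at least 1.5-fold higher in the members and 446 (4.68%) at least 1.5-fold lower, around a median log2 ratio of 0.00. Vim, the intermediate filament protein vimentin, had the highest ratio among the 15 genes named for the highest ratios, at 182 CPM in the members and 49.4 CPM in Gata2-low cells (log2 ratio 1.88, interval 1.753 to 2.002). Sox4, a transcription factor of progenitors, stood at 70.8 CPM in the members and 20.6 CPM in Gata2-low cells (1.78, interval 1.58 to 1.98). Meis1, a homeodomain factor of stem cells and early progenitors, stood at 33.1 CPM in the members and 9.89 CPM in Gata2-low cells (1.74, interval 1.45 to 2.03).

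The abundant member of this group was Plac8, a small cysteine-rich protein of myeloid and progenitor cells. It stood at 1098 CPM, or 10.9 UMIs per cell, in the members and at 344 CPM, or 7.28 UMIs per cell, in Gata2-low cells (log2 ratio 1.68, interval 1.63 to 1.72). Ifitm1, an interferon-induced membrane protein, stood at 253 CPM in the members and 78.1 CPM in Gata2-low cells. Ctla2a, an inhibitor of cysteine proteases whose close copy Ctla2b could share its reads, stood at 148 CPM in the members and 47.7 CPM in Gata2-low cells. Nkg7, a membrane protein of cytotoxic granules, stood at 177 CPM in the members and 57.2 CPM in Gata2-low cells. Gmfg, a regulator of the actin cytoskeleton, stood at 302 CPM in the members and 103 CPM in Gata2-low cells. All 4 log2 ratios lay over 1.55 to 1.70. The other named genes on this side were Egr1 (1.82), an immediate early transcription factor, the membrane protein Tmem176b (1.75), the membrane-bending protein Bin1 (1.71), the PI3 kinase inhibitor Pik3ip1 (1.60), the MHC class II-like chain H2-Oa (1.59), the thrombin receptor F2r (1.59) and the zinc finger factor Zbtb20 (1.55).

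On the other side, genes of red cell metabolism were among those that stood lowest. Hpn, the membrane serine protease hepsin, stood at 18.5 CPM in the members and 44.7 CPM in Gata2-low cells (log2 ratio -1.28, interval -1.59 to -0.98). Sphk1, which makes sphingosine 1-phosphate, stood at 65.9 CPM in the members and 138 CPM in Gata2-low cells (-1.07, interval -1.23 to -0.91). Uros and Cpox encode enzymes of heme synthesis. Uros stood at 15.04 CPM in the members and 30.7 CPM in Gata2-low cells (-1.03), and Cpox at 69.7 CPM in the members and 133 CPM in Gata2-low cells (-0.94). Car2, the second carbonic anhydrase gene and by far the more abundant one here, stood at 2022 CPM in the members and 3149 CPM in Gata2-low cells (-0.64, interval -0.67 to -0.61). Epor stood at 50.3 CPM in the members and 73.3 CPM in Gata2-low cells (-0.54), and Tfrc, the transferrin receptor gene, at 51.6 CPM in the members and 76.7 CPM in Gata2-low cells (-0.57). The remaining named genes were Paqr9 (-1.13), Bex4 and Nxpe2 (both -1.02), the asparagine synthetase gene Asns (-0.98), the actin nucleator gene Spire1 (-0.97), Phf10 (-0.97) of the BAF chromatin complex, the cell cycle gene Rgcc (-0.96) and the nuclear import gene Kpna2 (-0.96).

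Lowest among the 15 genes named for the lowest ratios, all with a mean of at least 20 CPM, were the neutrophil genes Camp (-1.86), S100a8 and S100a9 (both -1.39), and they rested on few barcodes. S100a8 had 2119 UMIs in Gata2-low cells, of which 1003 lay in 1 cell and 66.9% in 10 cells. No member and 7 Gata2-low cells had at least 1% of their UMIs from the list of granulocyte and monocyte genes. Without those barcodes, a setting added after the values were seen, the log2 ratios turned to 0.11 for Camp, 0.13 for S100a8 and 0.24 for S100a9.

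**Figure D2:**
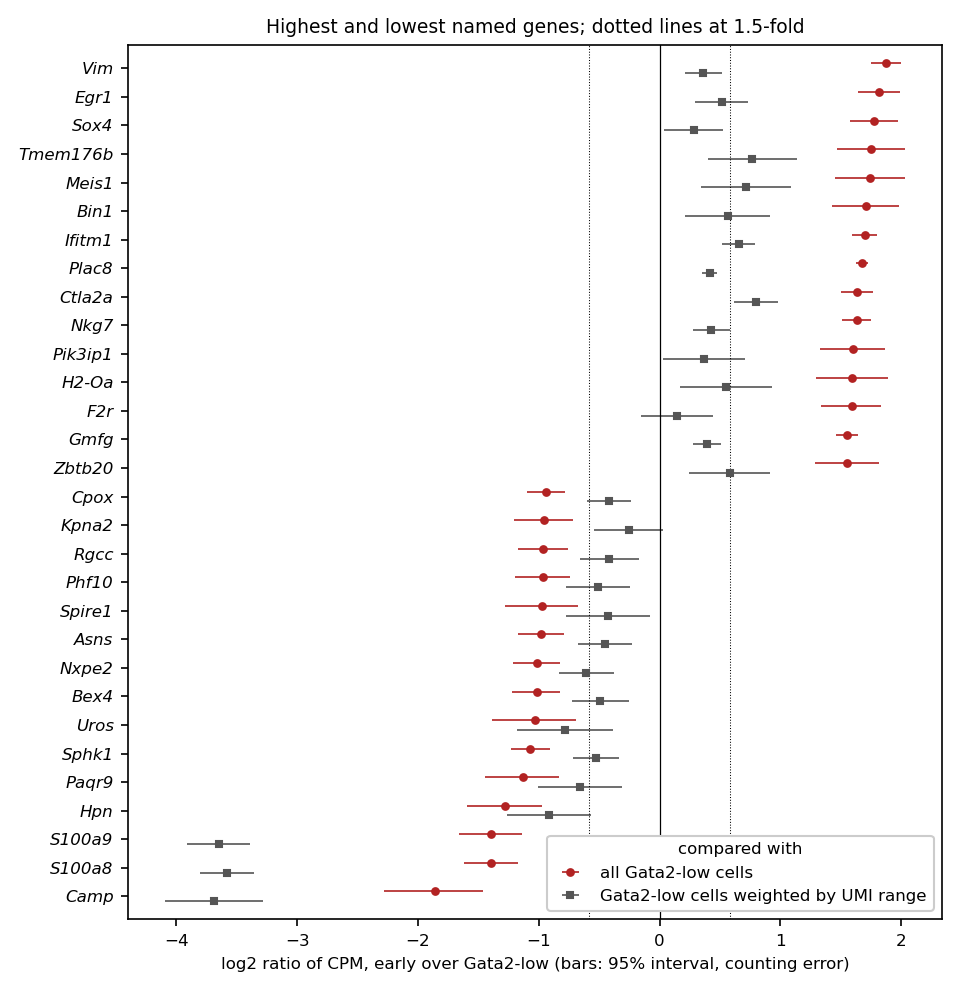
Log2 ratios of CPM, early Gata2-rich over Gata2-low cells, of the 15 highest and 15 lowest named genes (circles: all Gata2-low cells; squares: Gata2-low cells weighted to the members' distribution of UMI totals; bars: 95% intervals of counting error). Most weighted ratios lie nearer to 0; the 3 granulocyte genes at the bottom lie further from it.

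To show the sequence at the start of genes on either side, promoter windows were taken from RefSeq (build GRCm38.p6, 250 bases before to 50 after the start) for Vim, Sox4 and Tmem176b of the highest named ratios and for Hpn, Sphk1 and Uros of the lowest. The granulocyte genes were passed over because of the barcodes just described, a choice made after their values were seen, and the first listed start was used where a gene had several. Matches of GATAA, the core of the GATA factor site, and of CCNCNCCC, a pattern bound by KLF1, on either strand are in capitals; matches of the same or of both motifs may overlap. The windows run 5′ to 3′ on the strand of the gene.
Vim (chr2:13574061-13574360, plus strand): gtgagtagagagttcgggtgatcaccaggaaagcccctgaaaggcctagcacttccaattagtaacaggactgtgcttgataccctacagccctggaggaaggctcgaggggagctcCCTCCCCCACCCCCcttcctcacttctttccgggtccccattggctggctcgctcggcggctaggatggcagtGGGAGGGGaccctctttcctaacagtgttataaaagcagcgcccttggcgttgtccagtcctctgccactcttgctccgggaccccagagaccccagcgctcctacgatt
Sox4 (chr13:28953650-28953949, minus strand): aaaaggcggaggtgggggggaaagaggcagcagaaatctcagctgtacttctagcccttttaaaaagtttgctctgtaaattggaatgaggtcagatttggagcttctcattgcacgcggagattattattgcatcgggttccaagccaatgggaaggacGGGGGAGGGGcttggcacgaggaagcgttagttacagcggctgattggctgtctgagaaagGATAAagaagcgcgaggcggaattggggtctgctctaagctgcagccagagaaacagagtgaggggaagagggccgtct
Tmem176b (chr6:48841088-48841387, minus strand): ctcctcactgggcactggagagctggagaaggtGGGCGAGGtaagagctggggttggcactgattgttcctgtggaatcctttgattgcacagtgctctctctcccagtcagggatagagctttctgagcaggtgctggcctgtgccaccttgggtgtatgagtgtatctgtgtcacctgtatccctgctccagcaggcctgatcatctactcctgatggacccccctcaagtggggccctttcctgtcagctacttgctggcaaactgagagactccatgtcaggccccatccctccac
Hpn (chr7:31115277-31115576, minus strand): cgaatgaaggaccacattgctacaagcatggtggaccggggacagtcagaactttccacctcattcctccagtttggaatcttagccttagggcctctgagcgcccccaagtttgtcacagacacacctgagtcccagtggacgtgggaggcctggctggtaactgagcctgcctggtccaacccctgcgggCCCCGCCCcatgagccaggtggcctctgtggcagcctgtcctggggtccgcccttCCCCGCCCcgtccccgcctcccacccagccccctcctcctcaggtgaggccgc
Sphk1 (chr11:116530850-116531149, plus strand): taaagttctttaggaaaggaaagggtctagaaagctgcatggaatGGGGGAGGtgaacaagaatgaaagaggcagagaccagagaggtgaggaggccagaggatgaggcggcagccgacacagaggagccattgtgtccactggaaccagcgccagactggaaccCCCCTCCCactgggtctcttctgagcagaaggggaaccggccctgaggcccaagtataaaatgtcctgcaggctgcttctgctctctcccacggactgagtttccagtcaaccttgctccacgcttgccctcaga
Uros (chr7:133709246-133709545, minus strand): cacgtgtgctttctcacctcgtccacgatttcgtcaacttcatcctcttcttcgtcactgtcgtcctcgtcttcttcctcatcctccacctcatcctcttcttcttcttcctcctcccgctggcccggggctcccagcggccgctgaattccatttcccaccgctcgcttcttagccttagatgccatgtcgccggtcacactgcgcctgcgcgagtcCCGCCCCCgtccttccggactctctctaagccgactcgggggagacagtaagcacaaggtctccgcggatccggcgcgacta

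The Sox4 window held the only GATAA match among the 6, whereas each window held at least 1 CCNCNCCC match. Of all 32851 windows of the table, 25.4% held GATAA and 49.5% held CCNCNCCC. Among the 15 highest named genes, 13 had a window, 4 of them with GATAA and 8 with CCNCNCCC. Among the 15 lowest, 13 had a window, 3 with GATAA and 12 with CCNCNCCC. A match describes the letters of the window and is not a measured binding site.

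Since a member had fewer UMIs than a Gata2-low cell, the levels were also compared within 5 ranges of the UMI total (under 6000, 6000 to 8000, 8000 to 10000, 10000 to 20000, and 20000 or more), and Gata2-low cells were weighted to the members' share of UMIs in each range. Both were added after the gap in depth was seen. The ranges held 134, 137, 97, 126 and 34 members and 82, 75, 60, 320 and 580 Gata2-low cells, from low to high. Those below 10000 UMIs held 13.6, 17.9 and 16.4% of the members' UMIs, against 1.83, 2.18 and 2.28% of those of Gata2-low cells. The weighted levels thus rest in large part on few Gata2-low counts. After weighting, 412 genes (4.32%) stood at least 1.5-fold higher in the members and 327 (3.43%) at least 1.5-fold lower. Of the 1022 genes that were higher without weighting, 269 (26.3%) were still past 1.5-fold, and of the 446 lower ones 193 (43.3%). The rest of the 412 and 327 passed 1.5-fold with weighting alone. Most of the difference between the sets was thus shared with the difference in UMI total, and the part of depth in it was not tested. Below 10000 UMIs the Gata2-low cells had no Gata2 UMI by construction, and a cell that missed 1 transcript there was counted as Gata2-low.

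Genes differed in how much of their ratio was left after weighting by UMI range. Totals could still differ within a range. The last range ran up to 37707 UMIs in the members and 59295 in Gata2-low cells, so these ratios are not free of depth. The log2 ratio of Vim became 0.36 (interval 0.21 to 0.51), that of Sox4 0.28 (0.04 to 0.52) and that of Plac8 0.42 (0.36 to 0.48). Larger ratios were left for Ctla2a (0.80, interval 0.62 to 0.98), Tmem176b (0.77), Meis1 (0.71, interval 0.34 to 1.09) and Ifitm1 (0.66, interval 0.52 to 0.79), all still past 1.5-fold. On the other side Hpn stayed at -0.92 (interval -1.26 to -0.57), Uros at -0.78 and Paqr9 at -0.66, whereas Car2 came to -0.23 (interval -0.27 to -0.20). Kit came to 0.02 (interval -0.22 to 0.26), Car1 to 0.08, Gata1 to -0.05 (interval -0.18 to 0.08) and Klf1 to -0.05.

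Range by range, from the lowest UMI totals to the highest, Plac8 stood at 2020, 1610, 1216, 763 and 400 CPM in the members and at 1561, 1159, 943, 611 and 199 CPM in Gata2-low cells. It was higher in the members in all 5 ranges, with intervals that did not overlap in any of them, and lower in each deeper range than in the one before. Ctla2a stood at 350, 212, 164, 79.0 and 46.2 CPM in the members and at 171, 116, 98.2, 51.9 and 39.9 CPM in Gata2-low cells, higher in all 5 ranges with intervals apart in 4. Car2 ran the other way, at 1452, 1635, 1682, 2165 and 2905 CPM in the members and 1847, 1948, 2100, 2410 and 3448 CPM in Gata2-low cells, lower in the members in all 5 ranges with intervals apart in each.

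Sox4 stood at 178, 120, 55.6, 36.2 and 19.8 CPM in the members and at 129, 94.99, 66.7, 30.6 and 11.6 CPM in Gata2-low cells, with overlapping intervals in all 5 ranges. Meis1 stood at 89.5, 37.1, 37.1, 21.4 and 4.40 CPM in the members and at 39.2, 31.0, 13.0, 17.4 and 6.41 CPM in Gata2-low cells, with intervals apart in the lowest range alone. Hpn had no such slope in the members, at 16.8, 23.3, 20.8, 14.3 and 20.9 CPM, against 20.8, 42.6, 29.6, 31.5 and 49.4 CPM in Gata2-low cells. Gata1 was flat over the ranges in both sets, at 156 to 191 CPM in the members and 155 to 212 CPM in Gata2-low cells.

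**Figure D3:**
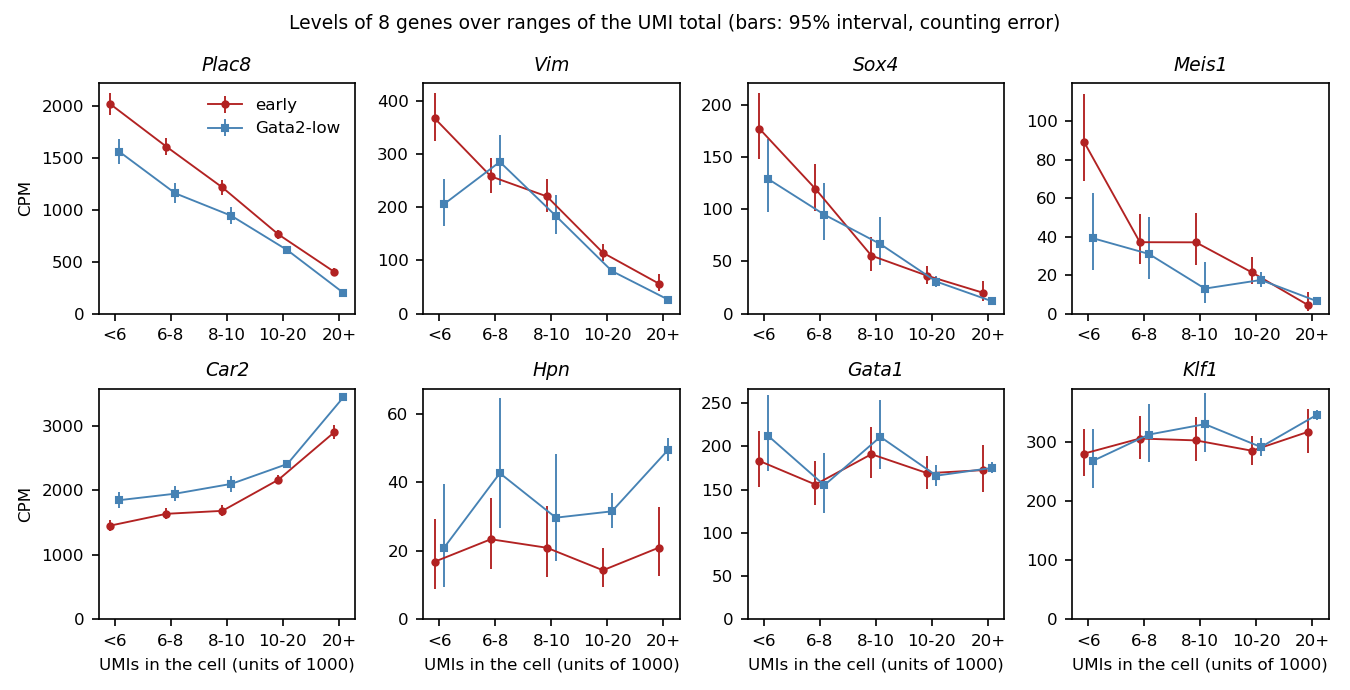
CPM (y axes from 0) of 8 genes in 5 ranges of the UMI total (x axes, in units of 1000 UMIs) in early Gata2-rich and Gata2-low cells; bars are 95% Poisson intervals. Plac8, Vim, Sox4 and Meis1 decline with the UMI total in both sets, Car2 climbs, Hpn is lower in the members throughout, and Gata1 and Klf1 are nearly level.

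Several of these genes were graded among the members' own cells as well. Over the 528 members, Spearman's rho between the UMI total and the level per UMI was -0.59 for Plac8, -0.39 for Ctla2a, -0.36 for Sox4 and -0.35 for Vim, but -0.14 for Meis1 and -0.11 for Ifitm1, against 0.38 for Car2, 0.04 for Gata1 and 0.07 for Klf1. Gata2 gave -0.45, which the limit per 10000 UMIs imposes in part. These are descriptions over cells of 1 library that share the UMI total on both axes. Mki67, a proliferation gene, stood at 43.4 CPM in members under 6000 UMIs and at 93.5 CPM in members with 20000 or more.

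Along ranges of the Gata2 level, in low-globin cells on both sides of the limit, Plac8 and Ctla2a stood higher and Car2 lower in each range above the limit than in either range below it. With 0, above 0 but under 1, 1 to under 2, 2 to under 3, and 3 or more Gata2 UMIs per 10000 (684, 433, 274, 89 and 165 cells), Plac8 stood at 385, 299, 914, 1041 and 1630.5 CPM. Ctla2a stood at 51.8, 43.2, 107, 133 and 269 CPM, and Car2 at 3116, 3184, 2198, 2035 and 1543 CPM. Below the limit the step ran the other way for all 3 genes. Gata1 stayed within 170 to 185 CPM. These ranges divide Gata2 by the UMI total, so every cell above 0 and under 1 had over 10000 UMIs. The UMI total thus moves with the ranges by construction, and its part was not tested. The values therefore do not show a grading with Gata2 itself. By contrast, 3 groups of 176 members ordered by globin share differed little. From the lowest globin share to the highest, Car2 stood at 2033, 2129 and 1877 CPM and Plac8 at 1031, 1040 and 1246 CPM.

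Genes were then grouped by role, in 28 lists chosen with earlier results of these data known. Their counts stand beside 10.7% higher and 4.68% lower of all measured genes, or 4.32% and 3.43% with weighting. Of the 18 measured stem and multipotent genes, 13 stood at least 1.5-fold higher in the members and none lower, with a median log2 ratio of 1.22. With weighting by UMI range 3 were higher, with a median of 0.19. Beside Sox4, Meis1 and Ctla2a these included Angpt1, the angiopoietin gene, at 29.7 CPM in the members and 9.64 CPM in Gata2-low cells (1.62; weighted 0.40). The summed level of the whole list of 25 was 1167 CPM in the members and 787 CPM in Gata2-low cells (1023 CPM weighted). Markers of the most immature cells were near absent in the members: Procr had no UMI, which allows up to 0.571 CPM (3 UMIs over the members), Cd34 stood at 3.998 CPM and Ly6a at 0.95 CPM.

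Among 19 measured partners and regulators of Gata2, 6 were higher and none lower, with a median of 0.29 (weighted 0 and 0.17). Fli1, an ETS factor of megakaryocytes and progenitors, stood at 18.7 CPM in the members and 6.93 CPM in Gata2-low cells (1.43; weighted 0.25). Spi1, the gene of the myeloid factor PU.1, stood at 24.4 CPM in the members and 10.6 CPM in Gata2-low cells (1.20; weighted 0.20). Hhex, a homeobox factor, stood at 190 CPM in the members and 105 CPM in Gata2-low cells (0.85; weighted 0.31). Of the 20 erythroid transcription factors, 2 were higher, the corepressor Cbfa2t3 (0.74) and the globin regulator Nfe2 (0.65), and 1 was lower, the cell cycle factor E2f4 (-0.74), around a median of 0.01, shares close to the 10.7% and 4.68% of all measured genes. With weighting none of the 20 was past 1.5-fold.

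Cytokine and growth factor receptors were mixed: of 16 measured, 5 were higher and 1 lower, with a median of 0.42 (weighted 1, 0 and 0.01). The receptor past 1.5-fold in both was the tumor necrosis factor receptor gene Tnfrsf1a, at 16.6 CPM in the members and 6.30 CPM in Gata2-low cells (1.39; weighted 0.99, interval 0.48 to 1.51). Igf1r, the receptor of insulin-like growth factor 1, stood at 43.8 CPM in the members and 27.2 CPM in Gata2-low cells (0.69; weighted 0.21). Immediate early genes were higher nearly as a block, 11 of 12 with a median of 1.12 (weighted 3 and 0.37). Jun stood at 316 CPM in the members and 116 CPM in Gata2-low cells (1.45; weighted 0.28), Fos at 58.6 CPM in the members and 23.5 CPM in Gata2-low cells (1.32; weighted 0.18), and the phosphatase gene Dusp1 had a ratio of 1.36 (weighted 0.33).

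The genes of hemoglobin and membrane assembly lay on the lower side by their medians, though most were within 1.5-fold. Of the 9 heme synthesis genes, 3 were lower and none higher, with a median of -0.40 (weighted 1 lower and -0.22). Uros, Cpox and Ppox (-0.60) were the 3. Alad (-0.40), Fech (-0.39) and Urod (-0.26) lay closer to 0, and Alas1, the housekeeping form of the first enzyme, was at 0.00. Of 24 red cell membrane and blood group genes, 7 were lower and none higher, with a median of -0.34 (weighted 0 lower and -0.10). Rhd stood at 122 CPM in the members and 216 CPM in Gata2-low cells (-0.82), the adducin gene Add2 at 26.1 CPM in the members and 47.8 CPM in Gata2-low cells (-0.88), and Rhag at 29.5 CPM in the members and 49.5 CPM in Gata2-low cells (-0.75). None of 15 iron handling genes was past 1.5-fold, with a median of -0.33. The iron exporter gene Slc40a1 (-0.58) and the iron-sulfur cluster gene Glrx5 (-0.40) were the named examples beside Tfrc.

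Genes of the cell cycle lay slightly lower. Of 30 mitosis and G2/M genes 7 were lower and none higher, with a median of -0.43 (weighted 0 lower and -0.09), and of 30 genes of DNA replication 4 were lower and none higher, with a median of -0.27 (weighted 0 and -0.08). Cyclin A2 (Ccna2) stood at 77.3 CPM in the members and 124 CPM in Gata2-low cells (-0.69), cyclin E1 (Ccne1) at 67.0 CPM in the members and 106 CPM in Gata2-low cells (-0.67), and the replication clamp gene Pcna at 123 CPM in the members and 183 CPM in Gata2-low cells (-0.57). Among cyclin-dependent kinases, D cyclins and inhibitors 5 of 13 were higher and none lower, around a median of -0.12, and with weighting none was higher and 1 lower (median 0.17). Ccnd2 stood at 232 CPM in the members and 128 CPM in Gata2-low cells (0.85; weighted 0.42, interval 0.29 to 0.54), and Cdk6 at 369 CPM in the members and 239 CPM in Gata2-low cells (0.62; weighted 0.26). Ccnd2 was higher in all 5 UMI ranges, with intervals apart in 3.

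Most genes of basic metabolism were within 1.5-fold. None of 30 ribosome biogenesis genes, 19 genes of the tricarboxylic acid cycle, 20 of oxidative phosphorylation, 13 mitochondrially encoded genes or 14 chaperones was past 1.5-fold, with medians over -0.22 to -0.05. Examples were the nucleolin gene Ncl (-0.37), the isocitrate dehydrogenase gene Idh3a (-0.46), the ATP synthase gene Atp5g1 (-0.34), mt-Nd1 (-0.10) and the chaperone gene Hspd1 (-0.43). Of 16 glycolysis genes, the pyruvate kinase gene Pkm (0.98; weighted 0.01) was higher and the lactate dehydrogenase gene Ldhb (-1.29, on 6 UMIs in the members) lower. Among 24 genes of nucleotide and one-carbon synthesis the ribonucleotide reductase gene Rrm1 (-0.61; weighted -0.30) was lower, and among 12 of the amino acid response and serine synthesis Asns (-0.98; weighted -0.45), with none higher in either list. Myc, a driver of growth and ribosome production, stood at 159 CPM in the members and 107 CPM in Gata2-low cells (0.58), just under 1.5-fold. In the Bcl2 family, 4 of 11 were higher and 1 lower around a median of -0.04 (weighted 2, 1 and 0.00), and the survival gene Bcl2 stood at 15.04 CPM in the members and 6.05 CPM in Gata2-low cells (1.31; weighted 0.42). Of 15 autophagy and mitochondrial clearance genes 3 were higher and none lower, with a median of 0.23 (weighted 1 higher, 1 lower and 0.09), among them Pink1 (0.77; weighted 0.36).

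Markers of neighboring lineages were measured in the same way. Of 8 measured mast cell genes outside the rule, 7 were higher in the members, with a median of 1.03 (weighted 1 and 0.33). The one past 1.5-fold in both was Rgs1, a regulator of G-protein signaling, at 22.3 CPM in the members and 4.61 CPM in Gata2-low cells (2.27; weighted 1.09, interval 0.58 to 1.60), with 117 UMIs spread over 81 members. The defining mast cell protease genes Tpsab1, Tpsb2 and Mcpt4 had no UMI in any member, nor had 3 others of the 22 listed. The mast cell list summed to 902 CPM in the members and 543 CPM in Gata2-low cells. Of 10 measured megakaryocyte genes 7 were higher, with a median of 1.02 (weighted 1 and 0.15), such as the tetraspanin gene Cd9 at 64.2 CPM in the members and 25.8 CPM in Gata2-low cells (1.32; weighted 0.46). Of the 21 megakaryocyte genes in the table, Selp, Tubb1, Gp6 and Itgb3 were at 0 in the members. That list summed to 256 CPM in the members and 153 CPM in Gata2-low cells. Of 13 basophil genes only Ifitm1 was measured (1.70, weighted 0.66), and 4 were at 0 in the members. The basophil list summed to 258 CPM in the members and 81.2 CPM in Gata2-low cells (166 CPM weighted). Granulocyte and monocyte genes were lower in 11 of 15 and higher in 2, with the 7 granulocyte-rich barcodes included, and summed to 197 CPM in the members and 386 CPM in Gata2-low cells, with Elane at 4.57 CPM in the members and 27.9 CPM in Gata2-low cells, 75.9% of the Elane UMIs of Gata2-low cells lying in 10 cells. Of 3 measured lymphoid and dendritic genes, Nkg7 and the B cell receptor gene Cd79b (1.59) were higher and none lower, with a median of 1.59 (weighted 0 and 0.34). That list summed to 251 CPM in the members and 124 CPM in Gata2-low cells (206 CPM weighted), and 7 of its 15 genes in the table were at 0 in the members, among them Cd79a and Cd3e. Whether other cells or free RNA contribute to these levels was not tested.

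**Figure D4:**
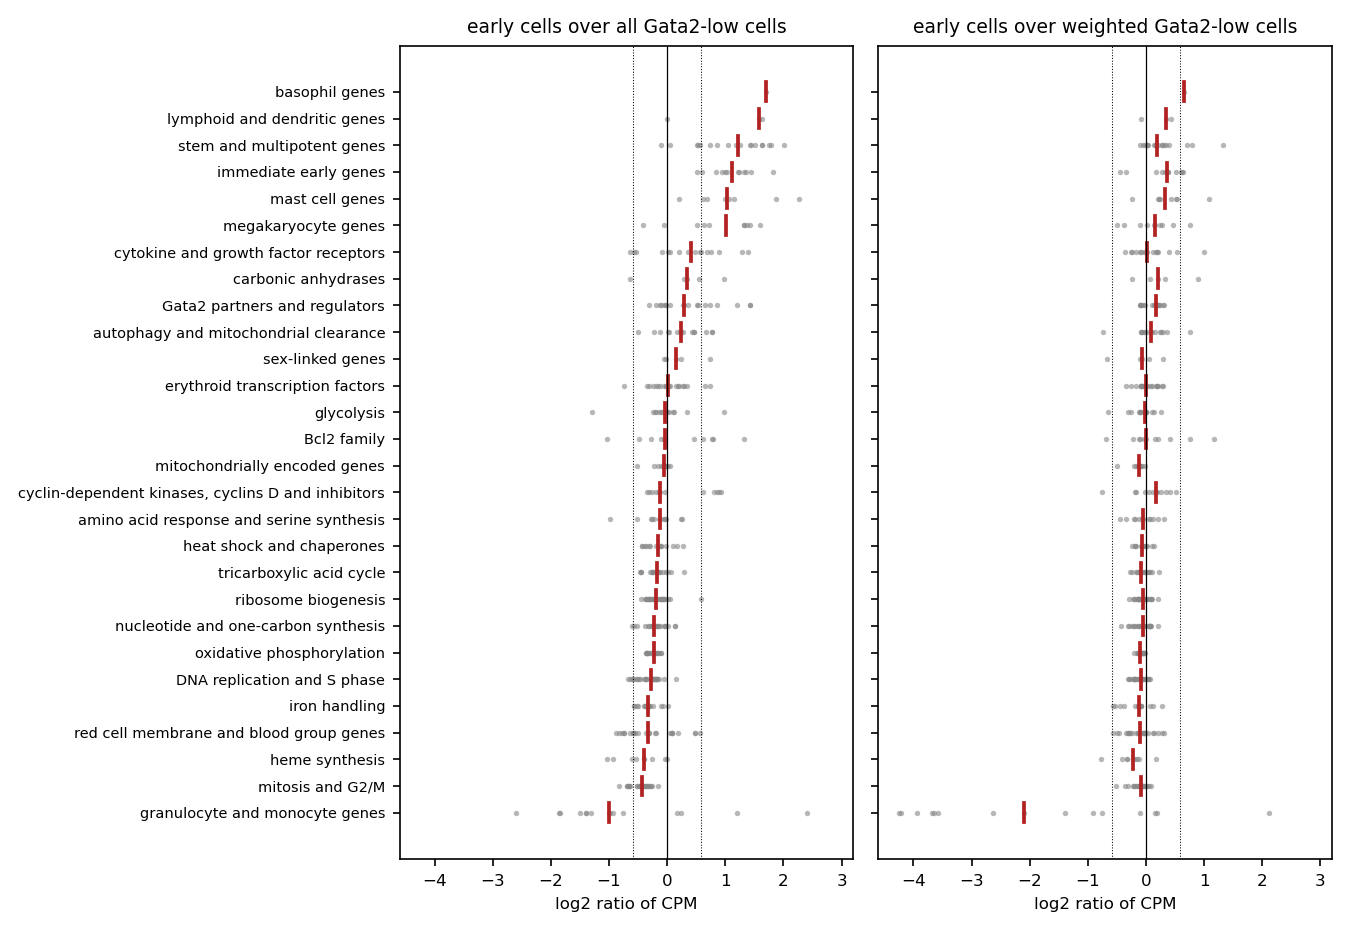
Log2 ratios of CPM, early Gata2-rich over Gata2-low cells, for the measured members of 28 gene lists (grey points: genes; red bars: list medians; dotted lines: 1.5-fold), over all Gata2-low cells on the left and over Gata2-low cells weighted by UMI range on the right. Medians of the stem, immediate early, mast cell, megakaryocyte, and lymphoid and dendritic lists lie above 1 on the left and under 0.4 on the right. The basophil list, with Ifitm1 alone measured, lies at 1.70 on the left and 0.66 on the right.

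The 1872 other kept barcodes of the library (37542151 UMIs, median 18793.5) add platelet-marked cells, globin-rich cells and cells with a mast cell UMI, Gata2-rich or Gata2-low. Against all of them, the same early transcripts headed the list and the late red cell genes stood out more. Among 9956 measured genes, 1274 (12.8%) exceeded 1.5-fold in the members' favor and 682 (6.85%) the other way; weighted by UMI range these were 474 (4.76%) and 536 (5.38%). Heme synthesis had 7 of 9 genes lower with a median of -0.87 (weighted 6 and -0.74), and red cell membrane genes 13 of 24 with a median of -0.75 (weighted 13 and -0.73). Alas2, the erythroid first enzyme of heme synthesis, stood at 10.5 CPM in the members and 29.6 CPM in the other barcodes (-1.50, interval -1.92 to -1.11), yet at 10.5 CPM in the members and 10.7 CPM in Gata2-low cells. Slc4a1, the anion exchanger band 3 of red cells, stood at 11.4 CPM in the members and 29.8 CPM in the other barcodes (-1.38), against 11.1 CPM in Gata2-low cells. Trim10, a gene of terminal erythroid cells in mouse, stood at 10.3 CPM in the members and 34.4 CPM in the other barcodes (-1.74). The globin limit of the rule keeps late cells out of the members, so these differences describe the choice of members.

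A nearer neighbor in depth was the set of 131 mast-marked cells, which met the rule except for at least 1 UMI of Cpa3, Ms4a2 or Gzmb (1221819 UMIs, median 7436, 71.8% under 10000 UMIs). Gata2 stood at 227 CPM in the members and 252 CPM in mast-marked cells. Among 7205 measured genes, the members were 1.5-fold or more above mast-marked cells in 305 (4.23%) and below them in 310 (4.3%). In simulated sums of this size with counting error alone, 6.56% of unchanged genes passed 1.5-fold in either direction. Most of these calls are thus no more than counting error gives. Gata1, Klf1 and Car1 differed by less than counting error. Gata1 stood at 173 CPM in the members and 172 CPM in mast-marked cells (log2 ratio 0.01, interval -0.21 to 0.23). Klf1 stood at 296 CPM in the members and 291 CPM in mast-marked cells (0.03, interval -0.14 to 0.20). Car1 stood at 740 CPM in the members and 713 CPM in mast-marked cells (0.05, interval -0.05 to 0.16). Of 20 erythroid transcription factors 1 was lower and none higher. Of 15 iron handling genes 2 were higher and none lower, and Tfrc was past 1.5-fold (0.62). None of the 9 heme synthesis genes was past 1.5-fold.

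Of 16 measured stem and multipotent genes, 5 were lower in the members than in mast-marked cells and none higher, with a median of -0.32, and the other 11 were within 1.5-fold. Genes named above for high ratios over Gata2-low cells were also compared, and Plac8 and Ifitm1 among them are not in the stem list. Plac8, within 1.5-fold, stood at 1098 CPM in the members and 1564 CPM in mast-marked cells (-0.51, interval -0.59 to -0.44). Vim stood at 182 CPM in the members and 283 CPM in mast-marked cells (-0.64). Sox4 stood at 70.8 CPM in the members and 117 CPM in mast-marked cells (-0.72). Ifitm1 stood at 253 CPM in the members and 494 CPM in mast-marked cells (-0.96, interval -1.10 to -0.82). Of the 8 mast cell genes outside the rule, 5 were lower in the members and none higher, with a median of -0.95. The Fc receptor chain gene Fcer1g stood at 28.7 CPM in the members and 70.4 CPM in mast-marked cells (-1.29), the adaptor gene Lat2 at 14.5 CPM in the members and 40.1 CPM in mast-marked cells (-1.47), and the vesicular monoamine transporter gene Slc18a2 at 12.8 CPM in the members and 28.6 CPM in mast-marked cells (-1.17).

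Part of this contrast lay in 19 mast-marked cells with 3 or more UMIs of the 3 mast cell genes. Lmo4, a LIM-domain cofactor, stood at 27.0 CPM in the members and 168 CPM in mast-marked cells (-2.63), with 76.1% of its UMIs in mast-marked cells lying in 10 of them. It reached 985 CPM in the 19 cells and 47.9 CPM in the other 112. Scin, which severs actin filaments, stood at 30.6 CPM in the members, 288 CPM in the 19 cells and 43.2 CPM in the 112. Plac8 stood at 1098 CPM in the members, 2794 CPM in the 19 cells and 1384 CPM in the 112. On the higher side of the members were Traf2, an adaptor of tumor necrosis factor signaling, at 30.1 CPM in the members and 12.3 CPM in mast-marked cells (1.29, interval 0.53 to 2.16), Hpn at 18.5 CPM in the members and 8.18 CPM in mast-marked cells (1.17, interval 0.23 to 2.28) and the DNA-binding cofactor gene Ssbp3 (0.89). These rested on 10 to 19 UMIs in the mast-marked cells.

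**Figure D5:**
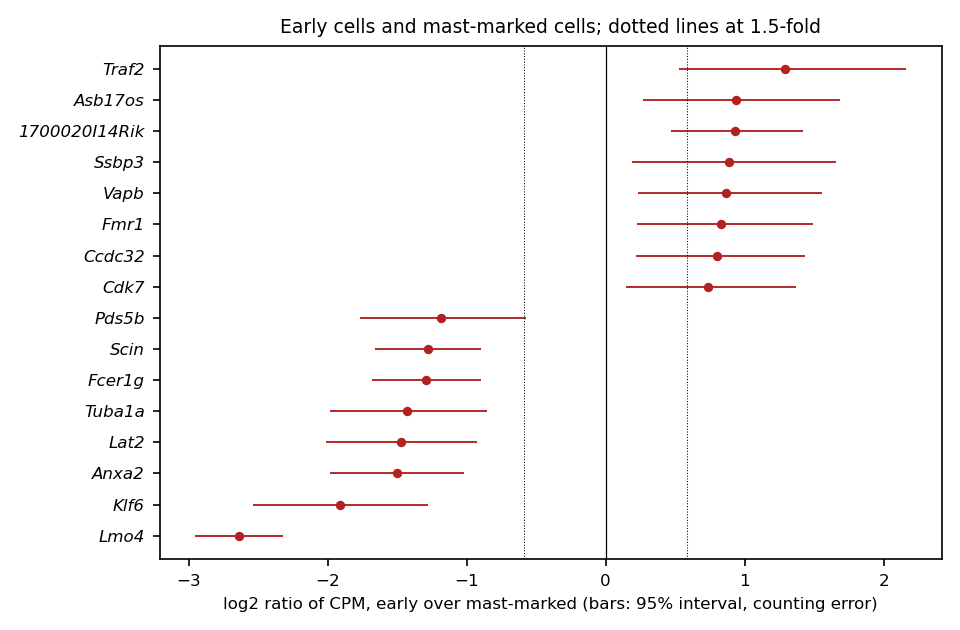
Log2 ratios of CPM, early Gata2-rich over mast-marked cells, of the 8 highest and 8 lowest named genes, with 95% intervals of counting error and dotted lines at 1.5-fold. The intervals of the higher genes are wide and reach below 1.5-fold, whereas those of Lmo4, Klf6, Anxa2 and Fcer1g lie wholly beyond it.

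Sex-linked transcripts were counted in the cells of the pool, and these counts do not separate its mice. Xist, transcribed from the inactive X chromosome of females, was the only such transcript in 192 members, 1 of 4 Y-linked genes (Ddx3y, Eif2s3y, Kdm5d and Uty) the only one in 97, both were present in 173 and neither in 66. In Gata2-low cells the counts were 316, 95, 665 and 41. Xist stood at 653 CPM in the members and 392 CPM in Gata2-low cells (0.74; weighted 0.30), and it was higher in the members in all 5 UMI ranges. Eif2s3y stood at 45.1 CPM in the members and 40.7 CPM in Gata2-low cells (0.15; weighted -0.10). The part of doublets and free RNA in these counts, and of depth in the cells with 1 kind alone, was not tested.

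The marrow library, which the rule did not use, held low-globin erythroid cells by a like choice (at least 1000 UMIs and at least 3 UMIs of Car1, Car2 and Klf1 together, with the same limits on mitochondrial, globin, mast cell and Pf4 counts). Of them 24 had at least 1 Gata2 UMI per 10000 and 144 had fewer, with median totals of 3652.5 and 3395 UMIs. At this depth most ratios were too wide to show a direction: of 187 genes with a UMI outside the rule, the 95% interval lay above 0 for 7 and below 0 for 8. With a 95% interval for each gene, some of these are expected from counting error alone. Plac8 stood at 372 CPM in the Gata2-rich marrow cells and 309 CPM in the others (log2 ratio 0.27, interval -0.32 to 0.81), Kit at 135 CPM in the Gata2-rich cells and 131 CPM in the others (0.04, interval -0.98 to 0.93), and Gata1 at 124 CPM in the Gata2-rich cells and 137 CPM in the others (-0.14, interval -1.21 to 0.78). Car2 stood at 1184 CPM in the Gata2-rich cells and 1490 CPM in the others (-0.33, interval -0.64 to -0.04), the direction seen in the Car1-GFP library. Car1 stood at 800 CPM in the Gata2-rich cells and 1037 CPM in the others (-0.37, interval -0.75 to -0.02). In the Car1-GFP library Car1 was at 0.28 over Gata2-low cells and at 0.08 with weighting. There it was higher in 2 of the 5 UMI ranges and lower in 3, so it had no steady direction to compare. Both genes were among those used to choose these cells. Ccnd2 stood at 372 CPM in the Gata2-rich cells and 122 CPM in the others (1.60, interval 0.96 to 2.23), higher as in the Car1-GFP library. The 7 genes with an interval above 0 also held Psat1, Xist and the myeloid genes S100a8, S100a9, Lyz2 and Mpo. S100a8 stood at 9921 CPM in the Gata2-rich cells and 8564 CPM in the others. Beside Car1 and Car2, the 8 genes with an interval below 0 held Glrx5 (-0.93), Pcna (-1.04), Rrm2 (-1.11), Cycs (-0.73), Abcb10 (-2.62) and mt-Nd1 (-0.29). Whether other cells or free RNA contribute to these marrow levels was not tested. Meis1 had no UMI in the 24 cells, which allows up to 33.8 CPM, and 4 UMIs in the 144.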

How the data were processed

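The deposited files were 1 matrix per library of whole-number UMI counts over 27998 genes, made with 10x 3' chemistry. Per the submitters' processing notes, Cell Ranger 2.1 and Seurat 2 were used with mm10; the role of Seurat and the filter that left these barcodes were not given in the sources used here. No deposited cell annotation was used. The Car1-GFP library held 2522 barcodes (median 15512.5 UMIs under the mitochondrial limit), and the marrow library 6458 (median 1051). Members and gene lists were chosen with earlier results of these data known.

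UMI counts were summed over the cells of a set and divided by the set's total to give CPM, with exact Poisson intervals, and ratios carried exact binomial intervals for a pair of counts. Cells are not replicates, so there is no p-value. A gene was measured with at least 50 UMIs in both sets together, and called higher or lower at 1.5-fold. In the weighted comparison, the level of Gata2-low cells in each of 5 UMI ranges was weighted by the members' share of UMIs there, with an interval from a normal approximation on the log scale. Named genes were Gata2, Kit, Car1, Car2, Gata1, Klf1, Zfpm1, Epor and Tfrc, the 15 highest and 15 lowest ratios over Gata2-low cells, the 8 highest and 8 lowest over the other sets, each with a mean of at least 20 CPM and leaving out mitochondrial, ribosomal, globin and immunoglobulin genes and those of the rule, and up to 5 members per list by ratio, of which some are printed. Ptprc, Mki67, Cd34, Ly6a and Cd79a were named after their values were seen. Positions come from GENCODE M21 on mm10. Doublets were called with Scrublet in scanpy 1.11.5 (seed 0); Python 3.11.15, numpy 2.4.6, scipy 1.17.1 and pandas 2.3.3 were used, and the functions were tested on simulated data. The alternatives tried were other limits of the rule, another fold and UMI minimum, edgeR's TMM and DESeq2 size factors, equal weight per cell, thinning to 4500 UMIs, and subsets by sex-linked transcripts and UMI total.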

Additional observations from a re-analysis of the deposited data

How the results depend on the processing

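No paired analysis was possible because each group is 1 library and no test was made. The 528 members became 254 with a Gata2 limit of 2 per 10000 and 116 with a globin limit of 0.5%. Against Gata2-low cells, the 1022 genes higher and 446 lower became 360 and 109 at 2-fold, 458 and 222 with at least 200 UMIs, and 212 and 209 within 10000 to 20000 UMIs. Below 10000 UMIs they were 245 and 127, and with a Y-linked UMI and no Xist 212 and 174. The higher count was also 681 after thinning to 4500 UMIs, 661 with the 0.5% globin limit, 583 with Xist alone and 412 weighted by UMI range, and the lower count was 916 with the Gata2 limit of 2. Against all other barcodes, the 1274 higher and 682 lower became 471 and 204 at 2-fold, 649 and 454 with at least 200 UMIs, and 323 and 373 with a Y-linked UMI alone. The higher count was 773 with Xist alone and 474 weighted, and the lower count was 1118 with the Gata2 limit of 2 and 1274 with the 0.5% globin limit. Against mast-marked cells, the 305 higher and 310 lower became 52 and 47 at 2-fold, 643 and 634 with at least 20 UMIs, 19 and 28 with at least 200, 173 and 178 with the 0.5% globin limit, 203 and 181 with a Y-linked UMI alone, and 1508 and 1212 against the 19 cells with at least 3 mast cell UMIs. Smaller sets and other thresholds move these counts by construction; beyond that the cause was not tested.

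Of 1692 values of named genes under alternatives, 1089 stayed within the counting interval, 594 left it in the same direction or under 1.5-fold, and 9 turned a called direction. These were Camp (0.11), S100a8 (0.13) and S100a9 (0.24) without granulocyte-rich barcodes, Asns (0.068), Ccna2 (0.13), Bub1 (0.23) and Pkm (-0.14) within 10000 to 20000 UMIs, and against mast-marked cells Asb17os (-0.18) with a Y-linked UMI alone and Tfrc (-0.027) with the Gata2 limit of 2. TMM and DESeq2 factors moved all log2 ratios of a comparison by -0.031 to 0.011. Depth limits genes under about 20 CPM and every ratio in the 131 mast-marked cells and the 24 marrow cells.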

Other observations

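Beyond the named lists, the level of Gata2 itself followed the UMI total over all low-globin cells without mast cell genes, on both sides of the limit. It stood at 237, 167, 134, 74.8 and 31.0 CPM from the lowest of the 5 UMI ranges to the highest. In the same cells, with no use of the Gata2 limit, Sox4 stood at 159 CPM in the lowest range and 12.0 CPM in the highest, Plac8 at 1847 and 209 CPM, and Car2 at 1601 and 3421 CPM. The members made up 62.0, 64.6, 61.8, 28.3 and 5.54% of the cells in those ranges.

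Among members with 20000 or more UMIs, membership took more than 1 Gata2 UMI, and some differences were found there and some were not. In those 34 cells Vim stood at 56.1 CPM, against 26.3 CPM in the 580 Gata2-low cells, and Ifitm1 at 103 CPM, against 55.9 CPM in Gata2-low cells. Rhd stood at 137 CPM in the members and 236 CPM in Gata2-low cells. Meis1 stood at 4.40 CPM in the members and 6.41 CPM in Gata2-low cells, with overlapping intervals.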
